A study of Aspergillus niger with 6 samples.

Results

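This report describes 239 genes of Aspergillus niger H915-1 that kept within a limited range over a citrate fermentation and were higher at a reduced air supply. They were selected on FPKM values of all 6 libraries from 10257 loci in the deposited tables, of which 9930 were listed in both. A gene belonged to the set when its log2(FPKM + 1) varied by less than 2 over the 5 times sampled at 3 vvm and reached at least 1 FPKM at one of them, and when it stood at 20 FPKM or more at 1.5 vvm and at least 1.5 log2 units above the 48 h library at 3 vvm. FPKM counts fragments relative to transcript length and library depth, and vvm gives the air passed each minute in culture volumes. All groups were the strain H915-1, harvested as pellets: 6, 12, 24, 36 and 48 h of fermentation at 3 vvm, and 48 h at 1.5 vvm. Each group had 1 library, so no difference given here has a replicate check. Since the members were chosen by these levels, the levels are a description, with no test.

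Aspergillus niger is a filamentous fungus that secretes large amounts of citrate when sugar is plentiful, and it is the main industrial producer of citric acid. The process is aerobic: the fungus reoxidizes the NADH of glycolysis with oxygen, through the cytochrome chain and through an alternative oxidase known from this species. Growth in pellets limits how far oxygen reaches, and the air supply is one of the main settings of the process. The files do not pair identifiers with names, and 0 of 14404 entries of a names table (assembly ASM285v2) matched an identifier, so members are given by their position on the authors' contigs, with positions counted from 1, and nothing is said of their function.

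The libraries held between 5062817 (6 h) and 6708034 (48 h, 1.5 vvm) fragments. From 6 to 48 h at 3 vvm the members took 0.941, 0.831, 0.760, 0.671 and 0.478% of the fragments, and at 1.5 vvm 2.18%. Their share at 1.5 vvm was 4.55-fold that at 48 h and 3 vvm, and 4.31-fold without the most abundant member. In bulk samples, a change in the kinds of cells within the pellets and a change in RNA per cell cannot be told apart.

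The members had medians of 12.1, 11.7, 11.6, 10.6 and 8.75 FPKM over the 5 times at 3 vvm, and of 40.8 FPKM at 1.5 vvm. The quartiles were 4.83 and 19.6 FPKM at 48 h and 3 vvm, and 26.1 and 78.6 FPKM at 1.5 vvm. At 3 vvm the members were therefore below the median of the 7958 time-stable genes (genes that met the range and level conditions alone), which was 29.4 FPKM at 48 h, and at 1.5 vvm above it (33.1 FPKM). Every member had to reach 20 FPKM at 1.5 vvm, whereas 5211 of the 7958 time-stable genes did. Both positions therefore go in part with the rule and are no separate result. The median log2 difference of the members between 1.5 and 3 vvm at 48 h was 1.94, against 0.28 over the 9787 genes with at least 1 FPKM in 1 of the 2 libraries. Of these 9787 genes, 11.2% were at least 1.5 log2 units higher at 1.5 vvm and 22.1% at least 2-fold higher. Since the rule used this contrast, the members' share of such calls is fixed.

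**Figure D1:**
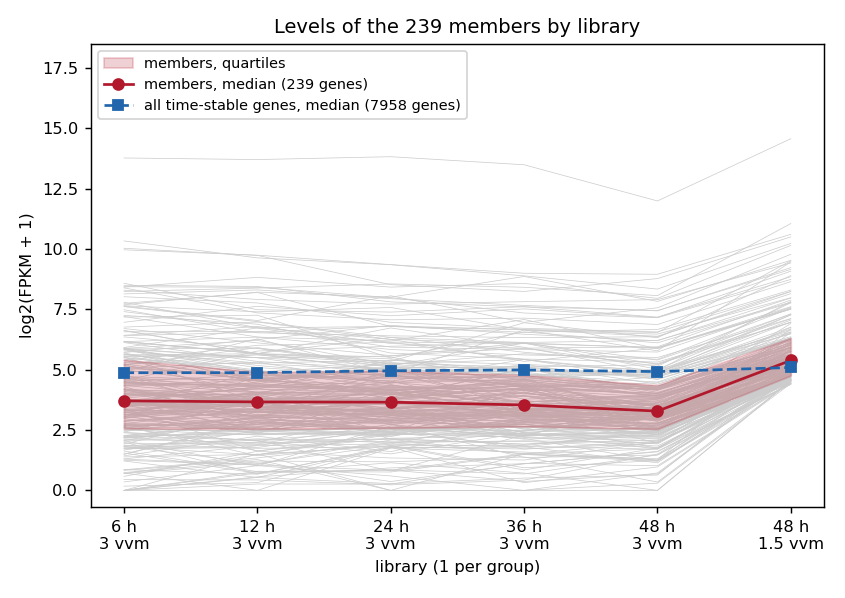
Levels of the 239 members as log2(FPKM + 1) in each of the 6 libraries, 1 library per group. Each grey line is a member, circles mark the members' median with quartiles shaded, and squares mark the median of all 7958 time-stable genes. The members' median lies below that of the time-stable genes at the 5 times at 3 vvm and above it at 1.5 vvm. The rule asked only the members for 20 FPKM at 1.5 vvm, so this crossing goes in part with their choice.

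The name time-stable holds in part. Of the 239 members, 154 (64.4%) still varied at least 2-fold over the 5 times on the log2(FPKM + 1) scale, against 35.5% of all time-stable genes. The range includes the 48 h library, in which the rule favours low values, so the larger share goes in part with the choice of members. Members also had fewer fragments in that library, with a median of 41 against 195 for the time-stable genes. The part of counting error in the range was not tested. The median range was 1.17 log2 units, between 0.17 and 1.99. A total of 229 members were above 0 FPKM at all 5 times. Of these, 29 had a highest FPKM at least 4-fold their lowest, and 18 had one at most 1.5-fold their lowest.

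Of the members, 126 lay between 1.5 and 2 log2 units above the 48 h library at 3 vvm, 80 between 2 and 3, and 33 at 3 or more. At 1.5 vvm, 148 members stood at 20 to under 50 FPKM, 41 at 50 to under 100 FPKM and 50 at 100 FPKM or more, 14 of them at 500 FPKM or more. The size of the difference went with the level at 48 h and 3 vvm. The 19 members under 2 FPKM there had a median difference of 3.70, the 112 members at 2 to under 10 FPKM 2.19, the 76 at 10 to under 50 FPKM 1.72, and the 32 at 50 FPKM or more 1.74. A minimum of 20 FPKM at 1.5 vvm sets a high lower bound on the difference of the lowest genes, so this order is in part fixed by the rule.

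**Figure D2:**
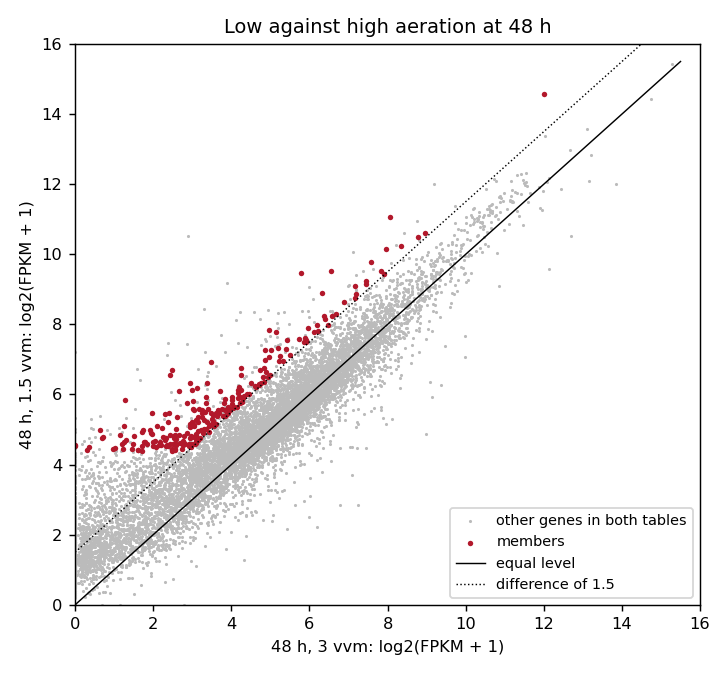
Level of every gene listed in both tables at 48 h and 3 vvm (x axis) and at 48 h and 1.5 vvm (y axis), as log2(FPKM + 1). Members are the dark points, bounded from below by 20 FPKM at 1.5 vvm and by the dotted line at a difference of 1.5. Grey points above that line varied more over time, were below 20 FPKM at 1.5 vvm, or stayed under 1 FPKM at 3 vvm.

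The largest difference was that of evm.model.unitig_3.1093 on unitig_3 from 3773004 to 3774263. Over the 5 times at 3 vvm it had 0.644, 0, 2.37, 2.01 and 1.41 FPKM, and at 1.5 vvm 56.7 FPKM, a log2 difference of 4.58. In fragments relative to depth it was 39.2-fold higher (95% counting interval 19.7 to 91.6), from 8 and 345 fragments. A second member lay close by on unitig_3 from 3776223 to 3777133, at 3.16, 1.02, 5.37, 4.04 and 4.39 FPKM from 6 to 48 h and at 92.8 FPKM at 1.5 vvm. Each of these genes was low in all 5 libraries at 3 vvm, and its value at 1.5 vvm lay far above them. Another 3 members lay on the same 100 kb stretch of unitig_3, from 3700001 to 3800000, which held 5 members among 32 genes. A stretch of unitig_6, from 1900001 to 2000000, also held 5 members, among 29 genes. No stretch of 100 kb held more members, so these counts are the maximum over all stretches. Of the 9787 genes with at least 1 FPKM in 1 of the 2 libraries at 48 h, 2.44% were members. Of the other 3 members on the unitig_3 stretch, the gene from 3729071 to 3729793 was at 26.7 FPKM at 1.5 vvm and at most at 1.43 FPKM at 3 vvm. The gene from 3721565 to 3722752 was at 22.0 and at most 3.40 FPKM, and the gene from 3733773 to 3734708 at 26.3 and at most 5.22 FPKM.

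The second largest difference rested on few fragments. This gene, spanning 1484420 to 1487717 of contig 1, reached 1.85 FPKM at 12 h, was listed at 0 for the other 4 times at 3 vvm, and had 22.6 FPKM at 1.5 vvm, from 16 fragments. With 0 fragments at 48 h and 3 vvm, its 16 fragments taken as they are were at least 4.85-fold higher than the 3 fragments per library that a count of 0 allows, and the lower 95% counting limit of the ratio was 3.51. The next, on unitig_0 from 3145051 to 3145560, had 0, 0.658, 1.21, 0.643 and 0 FPKM from 6 to 48 h, and 22.3 FPKM at 1.5 vvm. Its 47 fragments there, taken as they are, were at least 14.2-fold above the same floor, and the lower counting limit was 11.1. These were the 2 members with no fragment at 48 h and 3 vvm.

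The remaining members among the 10 largest differences were likewise low throughout the course. On unitig_6, the gene from 2992213 to 2993142 lay between 0.216 and 1.33 FPKM at 3 vvm and at 31.0 FPKM at 1.5 vvm, 49.4-fold higher in fragments (16.6 to 242). On contig 1, the gene from 232086 to 232919 lay between 0.273 and 1.61 FPKM and at 21.5 FPKM, with 1 and 88 fragments at 48 h (80.03-fold, 13.99 to 3196). On unitig_0, the gene from 5257078 to 5258010 lay between 0 and 1.04 FPKM and at 20.5 FPKM, with 1 and 96 fragments (87.3-fold, 15.3 to 3484). On unitig_1, the gene from 4483203 to 4484657 lay between 0.292 and 2.09 FPKM and at 25.8 FPKM (36.9-fold, 17.7 to 92.6). The width of these intervals shows how few fragments stood behind the 3 vvm values. Over the whole set, 22 members had under 10 fragments at 48 h and 3 vvm and 28 had under 100 at 1.5 vvm.

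The most abundant member was on unitig_4 from 3053986 to 3054454. Its levels from 6 to 48 h were 14031, 13400, 14549, 11544 and 4080 FPKM, and 24384 FPKM at 1.5 vvm. The 48 h library at 3 vvm was the lowest of the 6 by a wide margin, and at 1.5 vvm it was 0.74 log2 units above its highest level at 3 vvm. It held 17.6% of all member fragments at 1.5 vvm and 12.9% at 48 h and 3 vvm. At 6, 12, 24 and 36 h its share was higher than at 1.5 vvm, at 21.8, 23.8, 29.8 and 24.8%. The second most abundant, on unitig_6 from 1941934 to 1942836, had a flatter course, at 302, 333, 376, 341 and 268 FPKM from 6 to 48 h, and stood at 2133 FPKM at 1.5 vvm. Its fragments were 8.69-fold higher relative to depth (8.13 to 9.30), from 958 and 9157.

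Among the other 8 of the 10 most abundant members, 3 were highest at 6 h. On unitig_5 from 1778637 to 1779483 the level was 1002, 858, 655, 510.3 and 496 FPKM over the course, and 1564 FPKM at 1.5 vvm. On unitig_1 from 4064237 to 4064762 it was 1047, 854, 368, 302 and 438 FPKM, and 1452 FPKM at 1.5 vvm. On contig 1 from 852125 to 852739 it was 1293, 795, 653, 474 and 324 FPKM, and 1204 FPKM at 1.5 vvm, so that the low-air value lay below that at 6 h. All 3 were lower at 24, 36 and 48 h than at 6 and 12 h.

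The courses of the others at 3 vvm ranged from nearly level to widely varying. The gene on unitig_6 from 41749 to 42801 was at 84.1, 93.2, 111, 101 and 92.2 FPKM from 6 to 48 h and at 731 FPKM at 1.5 vvm, a log2 difference of 2.97. It lay 41748 bases from the start of its contig, and a further member from 45334 to 47093 had 2.36, 3.01, 7.69, 3.91 and 10.1 FPKM at 3 vvm and 119.8 FPKM at 1.5 vvm. The gene on unitig_1 from 2479933 to 2480391 was at 343, 454, 343, 381 and 247 FPKM and at 1137 FPKM. The gene on unitig_5 from 1629815 to 1630292 varied between 124 and 267 FPKM and was at 880.4 FPKM. On unitig_3 from 2888133 to 2889290 the level went up and down between 27.4 FPKM at 24 h and 99.4 FPKM at 36 h and was 711 FPKM at 1.5 vvm, a difference of 3.69.

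FPKM of the shortest transcripts needs care. The length that fragments, FPKM and depth together imply at 1.5 vvm had a median of 760 bases over the members and 1099 bases over the genes kept. It was under 200 bases for 16 members (6.69%), against 5.05% of the genes kept, and for 5 of the 10 most abundant members. For the gene on contig 1 from 852125 the implied length was 24.3 bases, and its 1204 FPKM came from 196 fragments. The most abundant member had an implied length of 157 bases and 25660 fragments at 1.5 vvm, so its ratio between the aeration rates has a narrow counting interval (6.22-fold, 6.01 to 6.44) although its FPKM level depends on a short length. The 3 shortest loci were those on unitig_4 from 3940882 to 3941169 (288 bases), unitig_1 from 4002721 to 4003053 (333 bases) and unitig_6 from 402454 to 402798 (345 bases). They had 108, 30 and 52 fragments at 1.5 vvm and log2 differences of 1.77, 1.72 and 1.97.

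On the log2(FPKM + 1) scale, the flattest courses belonged to members of low level. That scale narrows the range of low genes more than that of abundant ones, so this order goes in part with the scale. The abundant gene on unitig_6 from 41749, between 84.1 and 111 FPKM at 3 vvm, had a range of 0.40 log2 units. The gene on unitig_4 from 129312 to 130769 had 8.26, 8.53, 8.62, 7.57 and 8.49 FPKM over the course, a range of 0.17 log2 units, and at 42.9 FPKM at 1.5 vvm. Its fragments were 4.66-fold higher relative to depth (3.50 to 6.30). On unitig_1, the gene from 681384 to 682697 lay between 5.11 and 6.18 FPKM at 3 vvm and at 23.5 FPKM at 1.5 vvm, the gene from 2060413 to 2061560 between 2.44 and 3.32 and at 23.9 FPKM, and the gene from 1878001 to 1879129 between 4.79 and 6.43 and at 27.4 FPKM. On unitig_5, the gene from 567583 to 569052 lay between 3.73 and 5.04 FPKM and at 22.9 FPKM. In all 5 genes the 1.5 vvm value was at least 1.77 log2 units above the highest library at 3 vvm.

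The rule set the members against 1 library at 3 vvm, that of 48 h, and the other 4 times show how far they stood above the whole course. The low-air value was above all 5 libraries at 3 vvm for 225 members (94.1%), where 39.9% of the genes kept were. It was at least 2-fold above the highest of them for 145 members (60.7%), where 9.64% of the genes kept were. At least 1.5 log2 units above it were 96 members, and 450 of the 9787 genes kept. The median difference to the highest library was 1.21 log2 units. Both shares are partly fixed by the rule, since a member may vary by less than 2 log2 units and must exceed the 48 h library by 1.5. With FPKM rescaled to a common sum in every library, 220 members (92.1%) stayed above all 5 libraries and 118 (49.4%) at least 2-fold above the highest. Of the time-stable genes under the same scaling, 26.4% and 4.56% were.

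The median log2 difference of the members against 6, 12, 24 and 36 h was 1.75, 1.72, 1.74 and 1.85. Over the genes kept these medians were 0.39, 0.40, 0.33 and 0.25, and over the time-stable genes 0.26, 0.29, 0.25 and 0.18. The limit on the range and the difference asked against 48 h together hold the members' values up, so they are no separate result. The 24 h library is listed in the same table as the 1.5 vvm library, with FPKM identical in both tables at 9930 of 9930 shared loci, so the difference to 24 h rests on 1 table. With the difference taken against 24 h in place of 48 h, the rule found 211 genes, of which 151 (71.6%) were members, or 63.2% of the members.

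**Figure D3:**
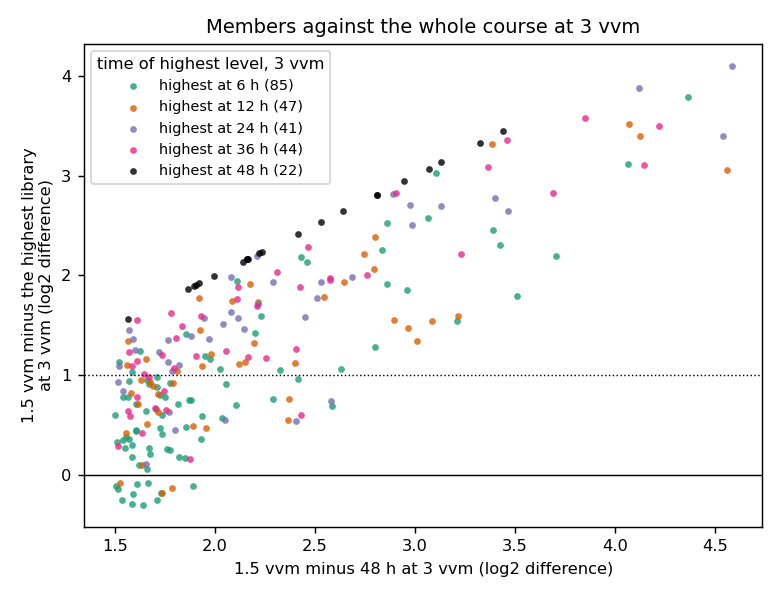
Each point is 1 of the 239 members, with its log2(FPKM + 1) difference between 1.5 vvm and 48 h at 3 vvm on the x axis and its difference to the highest of the 5 libraries at 3 vvm on the y axis. Colours give the time of the highest level at 3 vvm. The 14 points at or below the solid line lie within the 3 vvm range, and 145 lie on or above the dotted line at 2-fold.

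The other 14 members had been as high or higher at some time at 3 vvm. Of these, 11 were highest at 6 h and 12 were lowest at 48 h. An example is the gene on unitig_4 from 97473 to 100305, with 221, 106, 75.5, 66.8 and 59.5 FPKM over the course and 181 FPKM at 1.5 vvm. Another is that on unitig_5 from 266082 to 267861, at 147, 81.0, 56.3, 47.9 and 44.5 FPKM from 6 to 48 h and at 138 FPKM at 1.5 vvm. In both, the low-air value lay between the levels at 6 and 12 h. These examples were chosen after their values were seen.

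The members differed among themselves in the shape of their course at 3 vvm. Most often they were highest at 6 h (85 members, 35.6%, exact 95% interval 29.5 to 42.0). The later times, from 12 to 48 h, were highest for 47, 41, 44 and 22 members, or 19.7, 17.2, 18.4 and 9.21%. Of all time-stable genes, 31.0, 11.3, 15.2, 23.5 and 19.0% were highest at the 5 times in turn. The share of members highest at 6 h was thus near that of the time-stable genes, the share at 12 h above it and the share at 48 h below it. The 48 h library was the lowest of the 5 for 101 members (42.3%, 35.9 to 48.8), against 21.5% of the time-stable genes. A gene that is low in the 48 h library passes the difference of 1.5 more easily, so these shares go in part with the choice of members. With FPKM rescaled to a common sum, 71 members (29.7%) were highest at 6 h and 96 (40.2%) lowest at 48 h, against 23.4% and 18.1% of the time-stable genes under the same scaling.

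Between 6 and 48 h, 65 members (27.2%) ended lower by 2-fold or more and 23 (9.62%) ended higher by 2-fold or more. Over the 9025 genes with at least 1 FPKM in 1 of these 2 libraries, 11.9% were lower and 17.4% higher. These include genes past the range limit. Of the time-stable genes alone, 8.91% were lower and 10.6% higher, so that the share of members that ended higher was near the background. The rule favours genes with a low value in the 48 h library of the course. Both shares of the members therefore go in part with their choice, and the larger share that ended lower is no separate result. Rescaled to a common sum, 53 members were at least 2-fold lower, and the members' medians were 11.5, 12.2, 12.4, 10.9 and 9.23 FPKM over the course. The order of the medians up to 24 h was reversed under that scaling, while 48 h had the lowest median under both. That low median likewise goes in part with the choice of members.

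The groups by time of highest level also differed in level. The 85 members highest at 6 h went from a median of 32.2 FPKM at 6 h to 13.5 at 48 h and 3 vvm, and stood at 48.3 FPKM at 1.5 vvm, a median of 0.75 log2 units above their highest level. The 47 members highest at 12 h had medians of 14.7 FPKM at that time, 7.55 at 48 h and 34.3 at 1.5 vvm. The 41 highest at 24 h had 15.4 FPKM then, 10.5 at 48 h and 46.0 at 1.5 vvm, and the 44 highest at 36 h had 15.6, 7.71 and 35.3 FPKM at the corresponding times. The 22 members highest at 48 h had medians of 2.34 FPKM at 6 h and 5.99 FPKM in the 48 h library at 3 vvm, and stood at 28.4 FPKM at 1.5 vvm. Relative to the highest library at 3 vvm, this last group had the largest median difference of these 5 groups, 2.23 log2 units, and for it that library is the 48 h library which the rule used.

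Position on the contigs was not used by the rule. Members lay on each of the 8 contigs that held at least 100 genes and on no other. Their share of the genes kept ran from 1.99% on unitig_2 (27 of 1355) to 3.31% on contig 1 (39 of 1180, 2.36 to 4.49), and the exact intervals of all 8 contigs overlapped. Near the ends of these contigs (no more than 100 kb in) lay 9 members, 3.77% (1.74 to 7.03), against 4.17% of the genes kept and 3.16% of the time-stable genes. The genes that met both low-air conditions but varied past the range limit had 15 of 148, 10.1% (5.78 to 16.2), near an end. The difference between these 2 groups was not tested, and neighbouring genes are not independent, so the intervals are too narrow.

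Most members stood alone among their neighbours. A total of 32 members (13.4%) had another member as the next listed gene, in 12 pairs and 2 runs of 4. The run of 4 on contig 1, described below, had the structure of a repeat. Its loci may share reads, so its 4 members may not count separately. Members made up 2.44% of the genes kept, and of the genes kept that were not members 4.41% lay next to a member. With FPKM rescaled to a common sum the 139 genes then found had 5.76% next to another. The 421 genes directly beside a member that were not members themselves had a median log2 difference of 0.35 between 1.5 and 3 vvm, against 0.28 over all genes kept. Of these neighbours 25.7% (21.5 to 30.1) were at least 2-fold higher at 1.5 vvm, against 22.1% of the genes kept, and 2.61% were at least 2-fold lower, against 2.83%. The genes kept include the members, all at least 2-fold higher by the rule, and the neighbours do not, so these shares are not like for like. With FPKM rescaled to a common sum the neighbours of the genes then found had a median difference of 0.20, against 0.04 over the genes kept. Whether neighbours differed from other genes was not tested.

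The first run of 4 lay on unitig_6 from 1932876 to 1942836, 9.96 kb long and 1323 kb from the nearer end. Its first gene (1932876 to 1934562) had 59.3, 28.5, 27.0, 26.7 and 30.4 FPKM over the course and 227 FPKM at 1.5 vvm. The second (1935084 to 1936007) was at 7.96, 4.68, 6.30, 8.16 and 4.57 FPKM and at 103 FPKM at 1.5 vvm, a difference of 4.22 and the fifth largest of all members. The next (1939613 to 1941444) was at 12.8, 10.03, 9.53, 10.6 and 5.32 FPKM and at 67.0 FPKM. The last is the gene from 1941934 to 1942836 already given, at 2133 FPKM. All 4 were above each library at 3 vvm, by 1.92 to 3.50 log2 units over the highest, although their levels at 1.5 vvm spanned 67.0 to 2133 FPKM. The genes next to the run were higher by 1.32 (before it) and 0.92 (after it). The second gene after it, from 1946507 to 1948139, was higher by 2.93 but varied past the range limit (2.098).

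**Figure D4:**
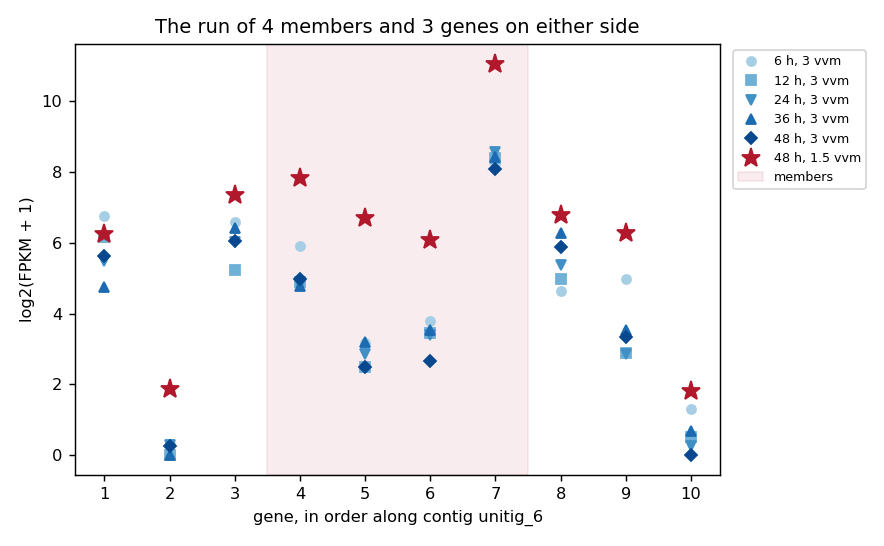
Levels of the 4 neighbouring members on unitig_6 and of 3 genes on either side, as log2(FPKM + 1), with genes in their order on the contig. Filled symbols are the 5 libraries at 3 vvm and stars the library at 1.5 vvm. In the shaded genes the star lies above all 5 other symbols by 1.92 to 3.50 log2 units.

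The other run of 4, on contig 1 from 3727265 to 3756736, had the structure of a repeat. Its first 3 loci spanned 7884, 7886 and 7885 bases, the 3 longest spans of all members, and started 7957 and 7959 bases apart, with the fourth locus (5598 bases) a further 7958 bases on. Gaps between the 4 loci were 73 bases each, and the implied length at 1.5 vvm was 989 bases for each of the first 3. They stood at 741, 157 and 154 FPKM at 1.5 vvm and at 227, 41.2 and 31.4 FPKM at 48 h and 3 vvm, and the middle pair had the same FPKM at 12 h (44.3, from 201 fragments each). The fourth was at 181 and 57.6 FPKM. All 4 were highest at 36 h among the times at 3 vvm, at 465, 67.9, 67.7 and 135 FPKM. Loci of nearly the same length at a nearly constant spacing may share reads, and the way the authors divided such reads is not known here, so the levels of the single loci are uncertain.

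Members, like the other genes that met the low-air conditions, had short spans. Their median span on the contig was 1041 bases (quartiles 824 and 1438), against 1512 over the genes kept and 1560 over the 7719 time-stable genes that were not members. Spans under 1 kb made up 44.8% of the members (38.4 to 51.3) and 21.3% of those other time-stable genes (20.4 to 22.2). Against the 4972 time-stable genes of at least 20 FPKM at 1.5 vvm that were not members, with a median span of 1516 bases and 23.6% under 1 kb, the members were likewise shorter. The 149 genes that met both low-air conditions but varied past the range limit had a median span of 1121 bases and 39.6% under 1 kb (31.7 to 47.9), so short spans were not particular to the members. The 107 members under 1 kb and the other 132 had median levels at 1.5 vvm of 46.2 and 35.6 FPKM.

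**Figure D5:**
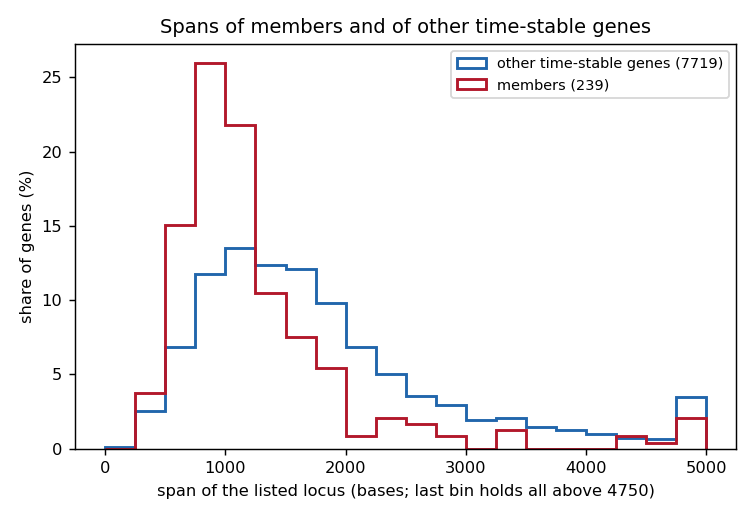
Share of genes (%) by the span of the listed locus in bins of 250 bases, for the 239 members and the 7719 other time-stable genes. The members pile up near 1 kb, with 44.8% under 1 kb against 21.3%.

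Set beside similar groups, the members were the larger part of the genes that met both low-air conditions. A further 149 genes met them but varied past the range limit, with medians of 13.3 FPKM at 48 h and 3 vvm and 99.4 FPKM at 1.5 vvm and a median difference of 2.22. Per gene of at least 20 FPKM at 1.5 vvm, the low-air conditions were met by 4.59% of the 5211 time-stable genes (4.03 to 5.19) and by 21.6% of the 689 genes past the range limit (18.6 to 24.9). The 48 h library at 3 vvm enters both the range and the difference. The mirrored rule, with at least 20 FPKM at 48 h and 3 vvm and a difference of -1.5 or below, found 24 genes. Their median was 132 FPKM at 48 h and 3 vvm and 33.5 FPKM at 1.5 vvm, with a span of 1697 bases. With FPKM rescaled to a common sum, which sets the median difference of the genes kept at 0.04 in place of 0.28, 160 of the 239 members still met the difference of 1.5.

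Genes that are nearly silent at 3 vvm had a raised level in the 1.5 vvm library, in part by the way they were picked. Of the loci in both tables, 442 stayed under 0.5 FPKM over the whole course, and they had a median of 1.57 FPKM at 1.5 vvm. Low values were required of them at 3 vvm and not at 1.5 vvm, so a rise there goes in part with that choice. Over all listed genes, 7 of 10234 were at 0 FPKM at 1.5 vvm. In the 5 libraries at 3 vvm, 374 to 501 of 9953 were, in a table that lists other loci in part. With 1.57 FPKM taken off each member at 1.5 vvm, 224 of 239 still met the difference of 1.5, a count that the minimum of 20 FPKM keeps high by construction. The part of the raised level in the members was not tested. Another 343 time-stable genes met the difference but were under 20 FPKM.

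A model on recovered fragments, with log2 time and aeration as terms over all 6 libraries, fits the 1.5 vvm library with a term of its own and takes its spread from the deviation of the other libraries from a line over time, not from replicates. With edgeR's quasi-likelihood test, 711 of 9507 genes (7.48%) were higher at 1.5 vvm at a Benjamini-Hochberg adjusted p below 0.05 and 161 were lower. Of the 239 members 153 were among those called higher. The rule used the same libraries, so this count adds no independent evidence.

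At the difference of 1.5, the 3 members closest to it were on unitig_0 from 3425913 (16.8 FPKM at 48 h and 3 vvm, 49.4 FPKM at 1.5 vvm) and from 2662912 (18.3 and 53.8 FPKM) and on unitig_5 from 2797138 (88.0 and 252 FPKM). The 3 nearest genes below it were on unitig_0 from 3428798 (32.3 and 93.0 FPKM) and from 4320900 (11.2 and 33.3 FPKM) and on unitig_2 from 372656 (234 and 659 FPKM). At the minimum of 20 FPKM, the lowest members at 1.5 vvm were at 20.0003, 20.03 and 20.2 FPKM (unitig_0 from 1621597, unitig_5 from 1341479, unitig_1 from 4871642). The nearest genes left out there were at 19.9, 19.8 and 19.8 FPKM (unitig_5 from 757345, unitig_2 from 712748, unitig_1 from 307290). At the range of 2, the members on contig 1 from 852125 and from 1473287 and on unitig_1 from 543970 varied by 1.99, 1.99 and 1.96 log2 units. The genes on unitig_3 from 3830161 and from 3463090 and on contig 1 from 2909311 varied by 2.01, 2.01 and 2.02 and were left out, the last with 578 FPKM at 1.5 vvm and 13.8 FPKM at 48 h and 3 vvm.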

How the data were processed

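RNA was sequenced from 6 libraries of A. niger H915-1, 1 per group. FPKM had been computed by the authors and deposited in 2 tables. Per the submitters' processing notes, TopHat2 2.0.9 and Cufflinks 2.1.1 were used. A genome build and strand setting were not given in the sources used here. Deposited count columns hold a scaled signal, per the file headers and values, and not whole numbers. Dividing by the smallest step gave whole fragments, within 0.1, for at least 99.9% of values in each library. Another 4 value columns matched no label and were not used.

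Tables were merged by locus, with the start raised by 1. Levels are log2(FPKM + 1), which understates changes of low genes. Ratios of fragments and shares carry exact 95% binomial intervals (Clopper-Pearson), which cover counting error only. The implied length is fragments divided by FPKM and by the library's fragments. The comparison of 1.5 with 3 vvm at 48 h sets FPKM of one table against that of the other. edgeR 4.0.16 (R 4.3.3, TMM, genes with at least 15 fragments in total) was run on recovered fragments, as a test of deviation from a time line. Python 3.11.15, pandas 2.3.3 and scipy 1.17.1 did the rest. The rule, edgeR step and intervals were tested on simulated data.

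Genes were named by position: the 10 largest differences, the 10 highest at 1.5 vvm, the 5 smallest ranges, runs of at least 3, the 3 longest and shortest spans, and the 3 nearest each threshold. At most 2 identifiers were to be printed. The members and this rule were chosen with earlier results of these data known. Alternatives were other pseudocounts, thresholds, scalings, reference times and left-out times.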

Additional observations from a re-analysis of the deposited data

Results flagged for a closer look

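A few genes that the set could not include reached its minimum level at 1.5 vvm. Of 304 genes listed only beside the 1.5 vvm library, 5 stood at 20 FPKM or more there, the level asked of members. Of the 7958 time-stable genes, 5211 reached that level. The 5 genes were not listed in the time course table, so their levels at 3 vvm are not known. Their median at 1.5 vvm was 33.2 FPKM and 6 fragments, the highest was at 137 FPKM, and 3 of the 5 had more than 3 fragments.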

How the results depend on the processing

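No paired analysis was possible because each group had 1 library. The size of the set depended on its thresholds: 582 genes with no minimum FPKM at 1.5 vvm, 91 with 50 FPKM, 588 with a difference of at least 1, 113 with 2, and 85 with a range below 1. Rescaling to a common sum left 139 genes, 135 of them members. The median difference of 1.94 was 1.86 with a pseudocount of 5 FPKM and also with at least 50 FPKM, 1.38 with a difference of at least 1 and 2.58 with 2. The share near contig ends was 7.69% with at least 50 FPKM, 1.26% within 50 kb and 7.53% within 200 kb. With a pseudocount of 5 FPKM 13.7% of members were highest at 36 h and 15.1% at 48 h. With a common sum 26.6% were highest at 6 h and 25.2% at 24 h, 5.76% lay next to a member, and neighbours had a median difference of 0.20, against 0.23 with the median of silent genes taken off. Genes at least 2-fold higher at 1.5 vvm numbered 2167, and 1067 with a pseudocount of 5 FPKM. edgeR's adjusted p, with no fold condition, called 711 genes higher of 9507 tested. The remaining 70 values stayed within 1.5 times for counts, or within the 95% interval of the reported value. Leaving out 1 time from the range gave 247 to 298 genes, most without 6 h. Requiring an implied length of at least 200 bases, chosen after seeing the data, left 223 genes. The cause of these shifts was not tested. With 1 library per group, depth limits single genes: the 22 members under 10 fragments at 48 h and 3 vvm have wide ratios.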
